A study of Mus musculus with 12 samples.

Results

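The STAT6-only peaks are regions that the authors' peak caller found with the STAT6 antibody in wild-type cells. They overlap no peak in the lists of the other libraries, whose reads at these positions could not be examined from the lists. A peak was taken when it lay on chromosomes 1 to 19, X or Y of the wild-type STAT6 list and shared not even 1 bp with a peak of any of the other 11 deposited lists. This held for 2746 of the 2970 wild-type STAT6 peaks on these chromosomes, a share of 92.5% (exact Clopper-Pearson 95% interval 91.4 to 93.4). They were chosen by their positions alone, and the scores, widths and spacing below describe them without a test. The series used ChIP-seq, in which protein is crosslinked to DNA, precipitated with an antibody, and the attached DNA sequenced. The cells were CD4 T cells of C57/Bl6j mice aged 7 weeks, either wild-type or NLRP3 knockout. In both genotypes naive cells from spleen and nodes were placed for some hours under Th2 conditions, on CD3 and CD28 coated plates, where they received an interferon gamma blocking antibody and 10 ng/ml of IL-4. Each genotype gave 6 libraries from chromatin of 300000 cells, of which 4 used an antibody to STAT6, IRF4, BATF or NLRP3, 1 a nonspecific immunoglobulin (Ig) and 1 was input without antibody. There was 1 library for each of these 12 groups, so no difference between groups could be tested and no p-value is given. The labels do not say how many mice a library came from.

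STAT6 is a transcription factor that is phosphorylated when IL-4 binds its receptor, then forms dimers, enters the nucleus and binds palindromic GAS-type elements in DNA. In CD4 T cells it starts the Th2 programme, which leads to the cytokines IL-4, IL-5 and IL-13. IRF4 and BATF are transcription factors that can bind DNA together in activated T cells, and NLRP3 is best known as a sensor of the inflammasome. Positions count from 1 and are printed as the authors gave them, in what is most likely the mouse build mm9. Without a genome or annotation of that build, the genes and sequences at these peaks were not analysed here. A peak list does not separate binding in few cells from weak binding in many.

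Being absent from every other list was common in most of the 12 lists. The same rule applied to the knockout BATF list gave 60003 of 60292 peaks, or 99.5%, and to the knockout input list 29599 of 29714 peaks, or 99.6%. These are the 2 longest lists. In wild-type cells the share was 89% for input, 78.8% for Ig, 76.3% for BATF, 70.7% for IRF4 and 61.8% for NLRP3. In knockout cells it was 80.4% for NLRP3, 80.2% for IRF4, 67.6% for Ig and 39.5% for STAT6, the last being 102 of 258 peaks. The wild-type STAT6 share was thus above that of wild-type Ig by more than the counting error, while its interval overlapped that of wild-type input, 85.8 to 91.8%. Shares of this size were thus also found in a library made without an antibody.

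**Figure D1:**
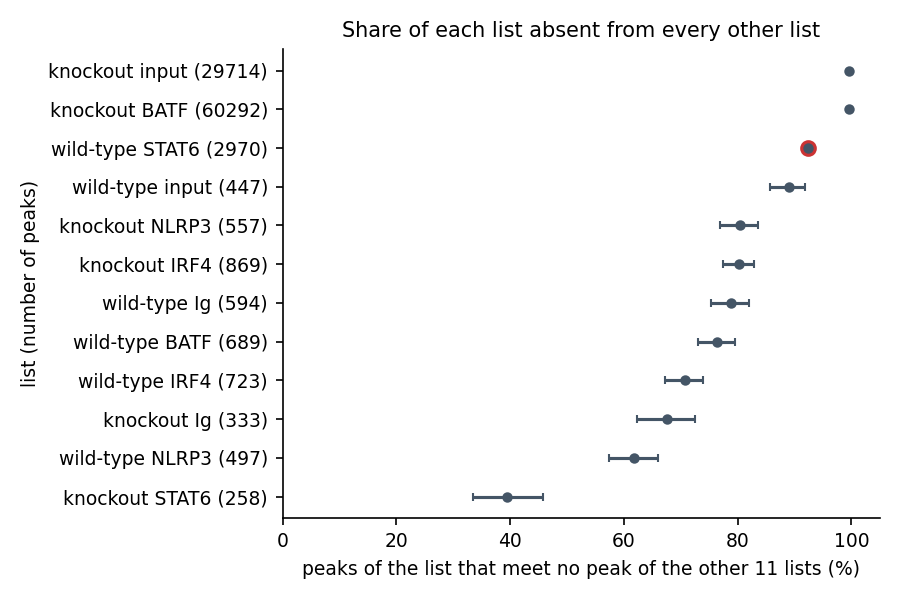
Share of the peaks of each of the 12 lists (rows, with the number of peaks on chromosomes 1 to 19, X and Y) that met no peak of the other 11 lists, in percent, with exact 95% intervals. The wild-type STAT6 list (red) lies at 92.5%, below the 2 longest lists and above wild-type input at 89%.

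The other 224 wild-type STAT6 peaks on these chromosomes met at least 1 other list. Of these, 126 met wild-type IRF4, 115 wild-type NLRP3, 97 wild-type BATF and 97 wild-type Ig, and 107 met STAT6 in knockout cells. An Ig or input list of either genotype held 119 of them, or 53.1%. They met exactly 1 other list in 79 cases and 5 lists or more in 95 cases. The peak just outside the rule, at chr17:87451248-87451386 with a score of 57.24, shared 1 bp with a knockout BATF peak. The STAT6-only peak closest to another list, at chr17:92270315-92270422 with a score of 58.65, lay 6 bp from a knockout BATF peak. Few peaks sat at this edge: 8 of the 224 shared at most 10 bp with any list, and 28 of the 2746 STAT6-only peaks had another list's peak within 100 bp.

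The STAT6-only peaks had a lower median width than the shared ones and scores near the lowest deposited value. The score is the authors' own value for a peak, which grows with the peak caller's confidence and is read here as 10 times the negative log10 of its p. Among the STAT6-only peaks it ran from 50.06 to 125.63, with a median of 58.65 and quartiles of 54.22 and 70.65. The 224 shared peaks had a median score of 88.9. Other lists had this order too, with medians for absent and shared peaks of 60.64 and 98.2 in wild-type Ig and 57.99 and 105.8 in wild-type NLRP3. In knockout BATF and knockout input the 2 medians were equal, at 56.67 and 57.35. A score of at least 100 was reached by 32 STAT6-only peaks, or 1.17%, and by 102 shared peaks, or 45.5%. Read the other way, 25.8% (18.4 to 34.4) of the wild-type STAT6 peaks with such scores were absent from every other list, against 97.4% (96.4 to 98.1) of those scored 50 to under 60. The shares in between were 94.9%, 94.2% and 90.5% for scores of 60 to under 70, 70 to under 80 and 80 to under 100. The fall was therefore concentrated in the peaks scored 100 or more.

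The widths ran from 64 to 422 bp, with a median of 106 bp and quartiles of 81 and 142 bp. The shared STAT6 peaks had a median width of 122 bp. Among peaks absent from all other lists it was 104 bp in wild-type Ig, 97.5 bp in input and 92 bp in BATF. In wild-type IRF4 and NLRP3 it was 152 and 149 bp. Over the STAT6-only peaks the score was higher where the peak was narrower, with a Spearman correlation across the 2746 peaks of -0.66. Across the 224 shared peaks it was 0.16. The peaks of a list share its library and depth, so both values describe the list only. STAT6-only peaks narrower than 80 bp numbered 621 and had a median score of 70.65, while the 738 peaks of 140 bp or wider had a median score of 54.42.

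The scores fell on few values. The 2746 peaks had 270 distinct scores, and 95.6% of the peaks shared their score with another STAT6-only peak. The commonest score, 58.65, belonged to 402 peaks, or 14.6% (13.3 to 16.0). Next were 53.75 with 243 peaks, 70.65 with 227, 76.80 with 218, 65.61 with 149 and 65.89 with 106. The 10 commonest scores held 1619 peaks, or 59.0%. Such ties were also seen in background libraries, where the commonest score held 16.7% of the peaks absent from all other lists in wild-type Ig, 16.3% in wild-type input and 86.5% in knockout input. Lists of specific antibodies differed widely. In wild-type IRF4 and NLRP3 the commonest score held 4.31% and 3.91%, but in wild-type BATF 14.3%. In knockout cells it held 88.1% for BATF, 22.2% for Ig, 18.5% for NLRP3, 9.80% for STAT6 and 6.46% for IRF4.

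Tied scores went with ranges of widths, some of which several scores had in common. At 95.74 the 82 peaks were 65 to 76 bp wide, with a median of 73 bp, and at 88.34 and 82.62 the median was 74 bp. At 76.80 they were 64 to 96 bp wide, with a median of 87 bp, and at 70.65 the median was 88 bp. At 58.65 and 53.75 the medians were 110 and 108 bp, and no peak at either score was wider than 128 bp. Other tied scores went on past that width, such as 62.03 up to 192 bp and 65.89 up to 160 bp. Most peaks past it lay on a few tracks of scores, and from 140 to 180 bp the commonest score was lower at each wider step. At 130 bp the commonest score was 53.48, for 8 of 16 peaks. It was 57.12 among the 25 peaks of 140 bp, 55.94 among the 18 peaks of 150 bp, 54.84 among the 14 of 160 bp, 53.81 among the 22 of 170 bp and 52.84 for all 12 peaks of 180 bp. Of the 941 peaks wider than 128 bp, 88.0% had 1 of the 2 commonest scores of their own width. A width with 1 or 2 peaks meets this in every case, and no baseline was computed. Only 9 of the 941, or 0.956%, had a score of at least 75, against 29.2% of the peaks up to 128 bp. Nearly all of the higher scores thus belonged to peaks no wider than this.

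**Figure D2:**
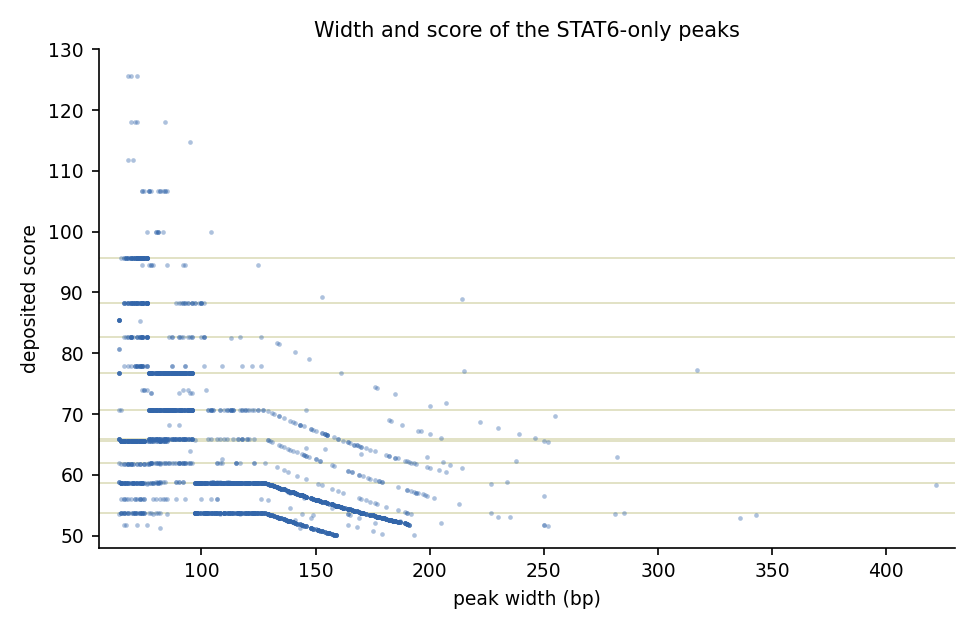
Width in bp (x axis) and deposited score (y axis) of each of the 2746 STAT6-only peaks (points), with the 10 commonest scores as pale lines. The peaks lie on flat steps up to 128 bp and on falling tracks beyond it, and all 32 peaks with a score of at least 100 are narrow, at 68 to 104 bp.

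Like most STAT6-only peaks, the highest-scored ones had no IRF4, BATF or NLRP3 peak beside them in wild-type cells. The peaks at chr2:17909383-17909451, chr8:104396923-104396990 and chr15:103436925-103436996 all scored 125.63 and were 69, 68 and 72 bp wide. The nearest wild-type IRF4 peaks lay 2912196, 1700383 and 1861237 bp away from them in that order, and the nearest wild-type BATF peaks 1304603, 1422668 and 406817 bp away. A score of 117.97 was held by 4 peaks, of which the first 2 by position are named here, at chr2:174316191-174316261 and chr3:73845798-73845869. The first of these 2 was the closest of the 5 named peaks to a wild-type NLRP3 peak, at 36826 bp. Knockout BATF peaks lay 5441, 2482 and 7127 bp from the peaks at chr2:17909383-17909451, chr15:103436925-103436996 and chr3:73845798-73845869. Over all STAT6-only peaks 41.6% had a knockout BATF peak within 10000 bp. Of the 32 STAT6-only peaks with a score of at least 100, 0 had a wild-type IRF4, BATF or NLRP3 peak within 10000 bp. The share over all STAT6-only peaks was only 2.08%, so 0 of 32 does not set the high scores apart. The 32 peaks lay on 15 chromosomes and had 6 distinct scores among them.

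The STAT6-only peaks were spread almost evenly over the genome. Density was counted per Mb of the span between the first and the last peak of any list on a chromosome, which came to 2576 Mb in all. The mean over the autosomes was 1.06 per Mb. The lowest density was on chromosome 16, with 84 peaks and 0.883 per Mb (exact Poisson interval 0.704 to 1.09). The highest was on chromosome 10, with 165 peaks and 1.30 per Mb (1.11 to 1.52), followed by chromosome 6 with 183 peaks and 1.25 per Mb (1.08 to 1.44). Chromosomes 10 and 6 were the only 2 of the 19 autosomes whose interval did not hold the autosome mean. The knockout BATF peaks absent from all other lists ran from 22.4 to 24.5 per Mb over the autosomes, with the highest value on chromosome 10 too. Across the 19 autosomes, which share their length and base composition between lists, the Spearman correlation of the 2 densities was 0.26.

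Chromosome X held 183 STAT6-only peaks, or 1.12 per Mb (0.962 to 1.29), which was 1.05 times the autosome density (0.901 to 1.22). The same ratio was 0.988 (0.631 to 1.48) in wild-type input and 0.519 (0.487 to 0.553) in knockout input. On chromosome Y there was 1 STAT6-only peak. Along the chromosomes the 5 equal parts of the span, counted from its start, held 20.1%, 20.2%, 18.9%, 19.8% and 20.9% of the peaks, so neither end was enriched beyond the counting error. In windows of 1 Mb the mean count was 1.06, the variance was 1.28 times the mean, and 39.0% of the windows were empty where a Poisson count of that mean gives 34.6%. The same variance ratio was 1.24 for wild-type input and 1.29 for knockout input. The fullest window held 8 STAT6-only peaks.

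**Figure D3:**
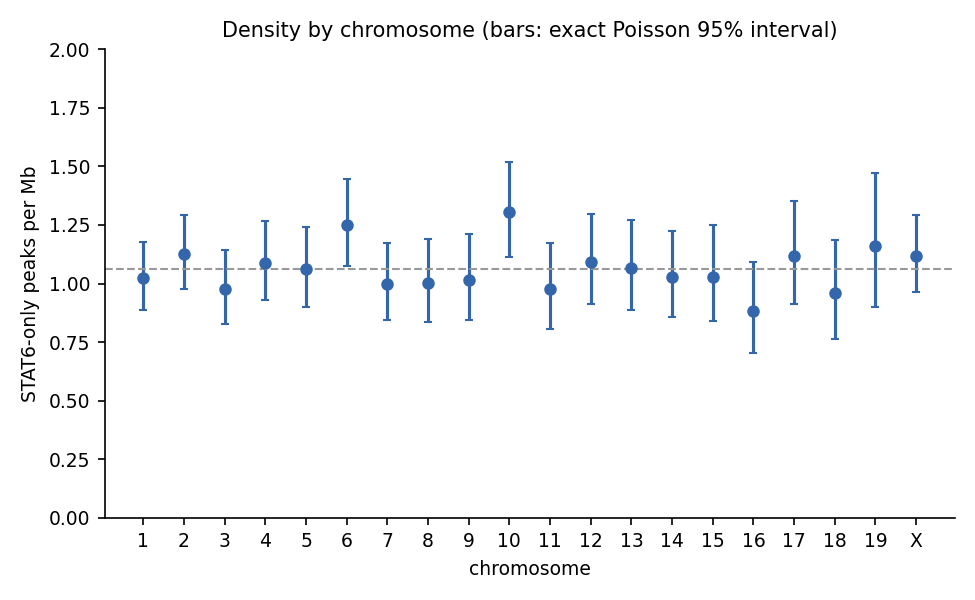
Number of STAT6-only peaks per Mb (y axis) on chromosomes 1 to 19 and X (x axis), with exact Poisson 95% intervals and the autosome mean of 1.06 as a dashed line. The intervals of chromosomes 6 and 10 lie above the mean, and that of X holds it.

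At short range the STAT6-only peaks were not evenly spread. The nearest other STAT6-only peak lay at a median of 255891 bp, with quartiles of 47795 and 609756 bp and a lowest gap of 325 bp. For 358 peaks, or 13.0% (11.8 to 14.4), it lay within 10000 bp. Uniform placement of the same number of peaks on each chromosome would give 2.13%, computed in closed form without simulation, so the observed share was 6.11 times that value. The excess had a limited range. Gaps of over 2000 to 4000 bp were found for 109 peaks, or 54.5 per kb of gap, where uniform placement gives 5.82. From over 8000 to 10000 bp there were 30 per kb, and from over 20000 to 30000 bp 6.7 per kb against 5.55. At up to 1000 bp there were 8 peaks, close to the 6.52 of uniform placement.

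These 358 peaks formed 170 clusters, in which successive peaks were at most 10000 bp apart. Of the clusters 153 held 2 peaks, 16 held 3 and 1 held 4, and clusters occurred on 20 of the 21 chromosomes. The 188 neighbouring pairs in them had a median gap of 5288 bp. The cluster of 4 lay on chromosome 5, with peaks at chr5:24120055-24120162, chr5:24125435-24125502, chr5:24132928-24133055 and chr5:24141489-24141571. Their scores were 62.03, 65.61, 58.65 and 65.61. A cluster of 3 on chromosome 19, at chr19:59847320-59847412, chr19:59856144-59856217 and chr19:59860103-59860172, had scores of 94.56, 65.61 and 61.78. The third cluster by summed score, on chromosome 2 at chr2:51591330-51591405, chr2:51598676-51598749 and chr2:51607373-51607455, had scores of 95.74, 58.65 and 58.77. None of these 10 peaks had a wild-type IRF4, BATF or NLRP3 peak within 10000 bp, which only 2.08% of all STAT6-only peaks had.

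Most of the clustering involved narrow peaks, but narrow peaks did not cluster at every score. Of the 621 STAT6-only peaks narrower than 80 bp 31.4% (27.8 to 35.2) had another within 10000 bp, against 7.67% (6.57 to 8.89) of the 2125 wider ones. At least 1 narrow peak took part in 168 of the 188 pairs, both peaks being narrow in 44 and 1 of them in 124. The 20 pairs of 2 wider peaks were 10.6% of the pairs, where 59.9% would be found if width were unrelated to pairing. With the narrow peaks left out, the share of peaks with a neighbour was 1.98% (1.43 to 2.66), close to the 1.66% of uniform placement. Some tied scores of narrow peaks had low shares, however. At 82.62, 88.34 and 95.74, with median widths of 74, 74 and 73 bp, they were 7.84% (2.18 to 18.9), 5.49% (1.81 to 12.4) and 13.4% (6.89 to 22.7). The limit of 80 bp was chosen after the widths had been seen.

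One tied score stood out in the clusters. Of the 149 peaks at 65.61, which were 65 to 85 bp wide, 72 or 48.3% (40.1 to 56.6) had another STAT6-only peak within 10000 bp, and 77.9% (70.3 to 84.2) had one within 50000 bp. At 58.65, the commonest score, these shares were 15.9% and 31.6%, and at 76.80 they were 5.50% and 16.5%. Peaks at 65.61 made up 20.1% of the clustered and 3.22% of the lone STAT6-only peaks. Both peaks of a pair had this score in 6 pairs and at least 1 had it in 73. Without this score 8.66% of the peaks still had a neighbour, against 2.02% under uniform placement.

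Clusters of this kind were not particular to STAT6 chromatin. Among the peaks absent from all other lists, 11.4% (8.82 to 14.4) in wild-type BATF, 8.54% (5.99 to 11.7) in wild-type input and 7.69% (5.45 to 10.5) in wild-type Ig had another such peak within 10000 bp. Uniform placement gives 0.406%, 0.316% and 0.366% for these shorter lists, ratios of 28.1, 27.0 and 21.0 against 6.11 for the STAT6-only peaks. The uniform share grows with the number of peaks, so neither shares nor ratios of lists of unequal length are like measures. The STAT6-only share itself, 13.0% (11.8 to 14.4), had an interval above those of wild-type input and Ig that overlapped that of wild-type BATF. It came from 2746 peaks, against 398 in wild-type input and 468 in wild-type Ig, so it cannot show that the STAT6-only peaks clustered more. In those 3 lists too the narrow peaks had the higher share, at 23.5%, 18.5% and 17.5% against 4.24%, 3.73% and 4.31% of the wider ones. The wild-type IRF4 and NLRP3 lists had 15 of 511 and 6 of 307 such peaks narrower than 80 bp, and 1.17% and 1.30% of their peaks had a neighbour, against 0.391% and 0.235% under uniform placement. In knockout cells the share was 8.89% against 0.180% under uniform placement for Ig, 6.92% against 0.371% for NLRP3 and 1.43% against 0.548% for IRF4. In knockout STAT6 it was 0 of 102 peaks, with an exact interval that reached 3.55%. The long knockout BATF and input lists went the other way, with 31.5% and 17.1% against 37.4% and 20.9%. Of their peaks absent from all other lists 99.92% and 99.96% were narrower than 80 bp, so narrow peaks did not cluster in every list. The wider peaks had the higher share there, from 18 of 50 and 4 of 12 peaks. Their intervals, 22.9 to 50.8% and 9.92 to 65.1%, held the shares of the narrow ones.

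**Figure D4:**
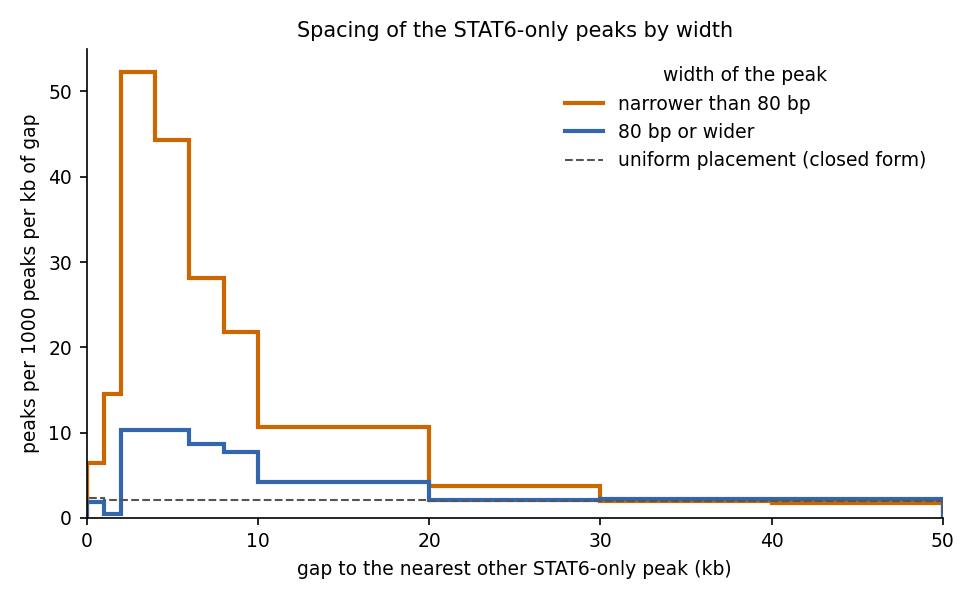
Gap in kb from a STAT6-only peak to the nearest other one (x axis) and number of peaks per 1000 peaks and kb of gap (y axis), for peaks narrower than 80 bp (orange) and wider ones (blue), with uniform placement as a dashed line. The narrow peaks reach 52.3 at gaps over 2 to 4 kb, the wider ones 10.4, and both come near the uniform value of about 2 beyond 30 kb.

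Very few STAT6-only peaks lay near an IRF4, BATF or NLRP3 peak. Overlap was excluded by the rule, so only the distance beyond it is a measurement. In wild-type cells the nearest IRF4 peak lay at a median of 1247840 bp, where uniform placement gives 1314464 bp. For BATF the median was 1463380 bp against 1506744 bp, and for NLRP3 2006810 bp against 1972092 bp. A wild-type IRF4 peak lay within 10000 bp of 30 STAT6-only peaks, or 1.09% (0.738 to 1.56), against 0.541% under uniform placement. For wild-type BATF there were 22 peaks, or 0.801% (0.503 to 1.21), against 0.502%, and for wild-type NLRP3 21 peaks, or 0.765% (0.474 to 1.17), against 0.361%. The ratios to uniform placement were 2.02 (1.36 to 2.88) for IRF4, 1.60 (1.001 to 2.41) for BATF and 2.12 (1.31 to 3.23) for NLRP3. Without the target peaks that met an Ig or input list of either genotype, they were 1.68, 1.40 and 1.94. For BATF the share was then 0.619% (0.361 to 0.989), an interval that held the 0.443% of uniform placement.

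The wild-type background libraries gave ratios of the same size, and the knockout input list did not. Wild-type Ig peaks lay within 10000 bp of 21 STAT6-only peaks, a ratio of 1.76 (1.09 to 2.68), and wild-type input peaks within that distance of 15, a ratio of 1.71 (0.960 to 2.82). Their intervals overlapped those of IRF4, BATF and NLRP3, so no preference for the 3 proteins over wild-type background was detectable with these numbers. The ratio was 1.80 (0.933 to 3.15) for knockout Ig and 1.03 (0.961 to 1.11) for knockout input, and the latter interval lay below those of IRF4 and NLRP3. The knockout input list held 29714 peaks, and uniform placement alone gives 21.0% within 10000 bp of it. The highest ratio of the 11 lists was that of STAT6 in knockout cells, with 16 STAT6-only peaks or 0.583% within 10000 bp and a ratio of 3.14 (1.80 to 5.09), whose interval also overlapped that of Ig. Peaks of the NLRP3 antibody in knockout cells lay within 10000 bp of 22 STAT6-only peaks, a ratio of 1.96 (1.23 to 2.95). This interval overlapped that of wild-type NLRP3, 1.31 to 3.23. For IRF4 in knockout cells there were 29 peaks and a ratio of 1.60 (1.07 to 2.29). Knockout BATF peaks were within that distance of 41.6% of the STAT6-only peaks, where uniform placement gives 39.0%.

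The knockout BATF list offers a further comparison, as its peaks absent from all other lists are many. These differ from the STAT6-only peaks, as their median width and both quartiles were 58 bp, against a median of 106 bp. Of them 88.1% had the same score, 56.67. They lay within 10000 bp of wild-type IRF4 at 0.993 times uniform placement (0.888 to 1.11), of wild-type BATF at 0.880 (0.778 to 0.992), of wild-type NLRP3 at 0.984 (0.856 to 1.12) and of wild-type Ig at 1.04 (0.917 to 1.17). The STAT6-only intervals lay above these for IRF4, BATF and NLRP3, for BATF by a small margin. For the peaks of wild-type Ig absent from all other lists the ratios were 3.54 (1.63 to 6.66) for IRF4 and 4.65 (2.02 to 9.09) for NLRP3, from 9 and 8 peaks, so nearness to these 2 above uniform placement was found for a nonspecific antibody too. For BATF it was 2.09 (0.682 to 4.85), from 5 peaks, an interval that holds 1.

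Within 1000 bp the numbers were 7 STAT6-only peaks for wild-type IRF4, 1 for BATF, 3 for NLRP3, 2 for Ig and 1 for input. The ratios to uniform placement were 4.64 (1.87 to 9.55) for IRF4, 0.694 (0.0176 to 3.87) for BATF and 2.95 (0.609 to 8.62) for NLRP3. They were 1.62 (0.196 to 5.84) for Ig and 1.08 (0.0272 to 5.99) for input, and all these intervals overlapped. Within 100000 bp the ratios to uniform placement were 1.15 for IRF4, 1.12 for BATF, 1.07 for NLRP3, 1.09 for Ig and 1.25 for input. In all 57 STAT6-only peaks, or 2.08%, had at least 1 of IRF4, BATF and NLRP3 within 10000 bp in wild-type cells, and 5 had all 3. Their median score was 58.65, equal to that of the whole set. Of these 57, 8 or 14.0% also had a wild-type Ig or input peak within that distance. Over all STAT6-only peaks the share was 0.765% for wild-type Ig and 0.546% for wild-type input. A total of 2663 STAT6-only peaks, or 97.0%, had none of the 5 other wild-type lists within 10000 bp. Clustered and lone STAT6-only peaks were near 1 of these 5 lists in 4.19% (2.36 to 6.82) and 2.85% (2.22 to 3.60) of cases, with overlapping intervals.

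**Figure D5:**
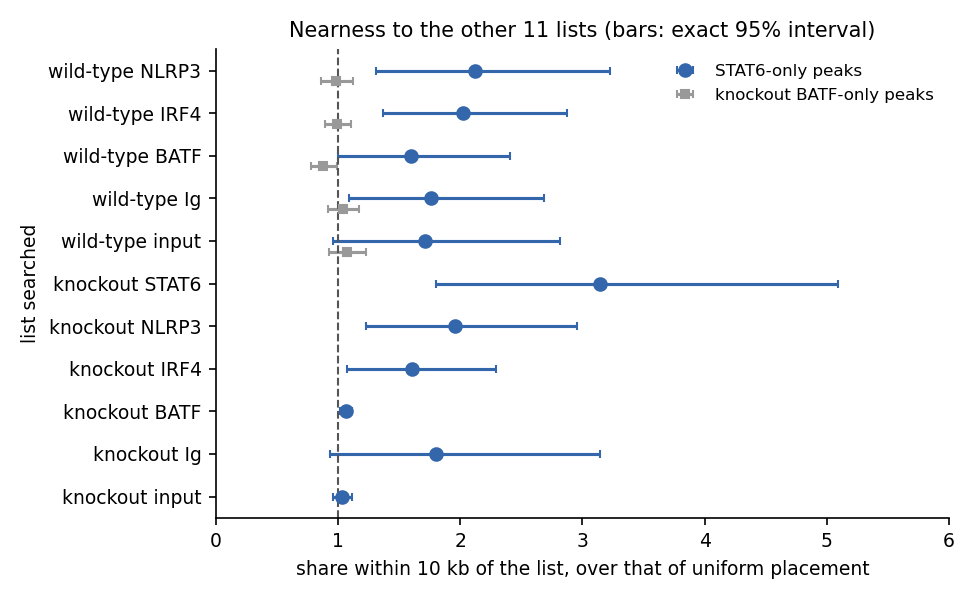
Share of peaks with a peak of the named list (rows) within 10 kb, divided by the share under uniform placement (x axis), with exact 95% intervals, for STAT6-only peaks (blue circles) and, for 5 wild-type lists, for knockout BATF peaks absent from all other lists (grey squares). The blue values for wild-type Ig and input, at 1.76 and 1.71, lie among those of IRF4, BATF and NLRP3 at 2.02, 1.60 and 2.12.

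The 6 STAT6-only peaks closest to the 3 proteins scored from 53.39 to 73.5, and 4 of them lay below the median of the whole set. The one nearest to wild-type IRF4 lay at chr18:65546139-65546308 with a score of 53.81, 51 bp from an IRF4 peak of 55.68. The next, at chr6:47727898-47728006 with a score of 62.64, lay 91 bp from an IRF4 peak of 57.34, and the knockout Ig and BATF lists had peaks of 77.08 and 56.67 at 64 and 149 bp. The one nearest to wild-type BATF, at chrX:29072572-29072700 with a score of 53.61, lay 44 bp from a BATF peak of 79.67. The second, at chr6:132416270-132416365 with a score of 73.5, lay 2443 bp from a region where wild-type BATF scored 632.65 and wild-type IRF4 228.2. That region also held a wild-type NLRP3 peak of 91.17 and, in knockout cells, peaks of STAT6, IRF4, BATF and input. Nearest to wild-type NLRP3 were a peak at chr16:92324092-92324239 with a score of 56.17, at 303 bp from an NLRP3 peak of 59.61, and one at chr18:3006289-3006631 with a score of 53.39, at 311 bp. The latter lay 295 bp from a wild-type IRF4 peak of 172.07 and 314 bp from a knockout STAT6 peak of 120.32. Of these 6 peaks, 3 thus stood beside regions found in several lists, and 3 beside a peak of a single wild-type list that scored under 80.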

How the data were processed

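Each of the 12 libraries had 1 deposited peak list. Bowtie2 is named as the aligner in the submitters' processing notes, and per the file headers the peak caller was MACS, run in Galaxy. The sources used here give neither its version, its settings nor its control library. The only value per peak is the authors' deposited score, which was not normalized between lists. Read counts are not part of the lists, so the depth behind a peak is unknown. The notes name the build mm8, but the last peaks of chromosomes 1 and 5, at 197127924 and 152493651, lie beyond its ends. On 10 of 21 chromosomes they pass the last gene of GRCm38.p6.

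Overlaps of at least 1 bp, gaps between peak edges, clusters and densities were computed with scipy 1.17.1, pandas 2.3.3 and numpy 2.4.6 under Python 3.11.15, and tested on simulated lists. Uniform placement values were computed in closed form, per chromosome, over the span between the first and last peak of any list. Near a target list, they are conditional on no overlap with that list. Intervals are exact 95% intervals (Clopper-Pearson for shares, Poisson for densities) that cover counting error of peaks only, and neighbouring peaks are not independent. In the wild-type STAT6 list 132 peaks on unplaced sequences were left out.

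The regions named are the 5 highest-scored, the 2 nearest to each of wild-type IRF4, BATF and NLRP3, the 3 largest clusters by number and then summed score, and the peaks at the edge of the rule. Ties were broken by position, as among the peaks scored 117.97. The members and rules were chosen with earlier results of these data known. Alternatives covered the overlap, score minimum, distance, merging, target lists and spans.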

Additional observations from a re-analysis of the deposited data

How the results depend on the processing

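No paired analysis was possible because each group had 1 library. The number of STAT6-only peaks, 2746, stayed between 2511 and 2846 when the overlap, the window, the lists searched or the sequences were changed, and was 32 with a minimum score of 100. The share at the commonest score was 16.1% with scores rounded to whole numbers. The share with a neighbour, 13.0%, was 5.79% within 5000 bp and 25.3% within 50000 bp (5.34 and 2.50 times uniform placement), 1.12% among peaks scored at least 75 (2.68 times), 1.98% among peaks of 80 bp or wider and 8.66% without the score 65.61; the last 2 settings were chosen after the data were seen. The shares near wild-type IRF4, BATF and NLRP3 were 0.255%, 0.0364% and 0.109% within 1000 bp, and 6.01%, 5.21% and 3.79% within 100000 bp. With target scores of at least 75 they were 0.364%, 0.182% and 0.328% within 10000 bp (2.35, 0.858 and 2.64 times uniform placement). With member scores of at least 75 the BATF and NLRP3 shares were each 0.187%, from 1 peak. That is 0.373 and 0.518 times uniform placement, so the BATF and NLRP3 ratios were on either side of 1. The X to autosome ratio was 0.843 with a minimum score of 75. The causes were not tested. Another 17 alternatives stayed within the counting interval, for counts within 1.5 times, or for the median width within the standard deviation of the widths. The median width of 106 bp became 79 bp with a minimum score of 100, below the lower quartile of 81 bp. Depth is unknown, so it cannot be said how many STAT6-only peaks a deeper library would share.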

Other observations

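The density of chromosome X relative to the autosomes was lower in knockout than in wild-type input, with intervals that did not overlap. Among peaks absent from all other lists it was 0.478 (0.259 to 0.810) for the NLRP3 antibody, 0.543 (0.232 to 1.09) for Ig and 0.519 (0.487 to 0.553) for input in knockout cells, against 0.813 (0.459 to 1.34), 1.23 (0.849 to 1.73) and 0.988 (0.631 to 1.48) in wild-type cells. For BATF it was 0.938 (0.907 to 0.971) in knockout and 1.25 (0.883 to 1.72) in wild-type cells. For IRF4 and STAT6 the knockout value was the higher, at 0.945 (0.675 to 1.29) against 0.887 (0.588 to 1.29) and 1.25 (0.526 to 2.58) against 1.05 (0.901 to 1.22), the last being the STAT6-only set. For each of the 5 antibodies, Ig included, the wild-type and knockout intervals overlapped. The labels used here do not give the sex of the mice.

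STAT6-only peaks were also found close to the wild-type STAT6 peaks that other lists share. Within 10000 bp of such a peak lay 18 of them, or 0.655%, where uniform placement gives 0.164%.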
